A study of Mus musculus with 2 samples.

Results

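The heat shock, co-chaperone and endoplasmic reticulum (ER) folding genes were examined in midbrain of newborn mice. Members were the genes whose symbols name an Hspa, Hspb, Hsp90, Hspd1, Hspe1, Hsph1, Dnaja, Dnajb, Dnajc or Pdia gene, Calr or Canx. This gave 81 of the 43346 mouse genes in the deposited tables, and 78 of them are protein-coding. Hspa14, a constitutive cytosolic relative, had no row under its symbol and is not analysed here.

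The data are 2 RNA-seq libraries of 1 group, midbrain of B6NCrl mice at postnatal day 0. The 2 animals are pup 1 and pup 3. Each library was made from 13 pg of total RNA of more than 200 nt, the amount in about 1 cell, with spike-in RNA. The assay is labelled as single-cell RNA-seq, but the material named is tissue RNA, and no treatment, genotype or second region is compared. No test between conditions was therefore possible, and values are given for each pup and as mean ± SD (n = 2). In bulk RNA, fewer cells of a type and less RNA per cell cannot be told apart.

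Chaperones bind unfolded protein and let it fold without clumping. The HSP70 proteins do this in cycles of ATP use that J-domain proteins (the Dnaj genes) start and nucleotide exchange factors end, and the HSP90 proteins act later on nearly folded clients such as kinases and steroid receptors. Separate sets serve the cytosol, the ER and the mitochondrion. Neurons keep a high constitutive supply, and classical neuronal work describes a weak induction of the heat-inducible HSP70 genes. Heat shock factor 1 drives the cytosolic stress genes from heat shock elements, and the unfolded protein response drives the ER genes from ER stress elements.

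The ends of some coding sequences carry a mark of the compartment, and they are shown for the leading HSP70, HSP90 and ER genes. Several cytosolic HSP70 and HSP90 proteins end in the residues EEVD, the handle that the co-chaperones Stip1 and Stub1 hold. Many soluble ER proteins end in KDEL or a close variant, the signal that returns them from the Golgi. In the sequences below (coding strand, GENCODE M21, GRCm38), the last 4 codons before the stop are in capitals.
Hspa8: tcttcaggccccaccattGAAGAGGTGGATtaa
Hsp90ab1: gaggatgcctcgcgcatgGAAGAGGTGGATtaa
Hsp90aa1: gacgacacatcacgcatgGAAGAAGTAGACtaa
Hspa1b: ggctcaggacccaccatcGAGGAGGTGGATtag
Hspa5: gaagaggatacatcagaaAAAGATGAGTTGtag
Hsp90b1: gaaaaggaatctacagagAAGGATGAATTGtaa
Calr: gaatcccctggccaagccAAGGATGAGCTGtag
Pdia6: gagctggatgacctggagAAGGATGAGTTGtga
Canx: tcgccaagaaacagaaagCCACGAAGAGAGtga
The first 4 genes end in EEVD, the next 4 in KDEL, and Canx, which is held in the ER membrane, in neither. Of the 78 coding sequences, 7 encode a terminal EEVD, in Hspa8, Hsp90ab1, Hspa2, Hsp90aa1, Hspa1a, Hspa1b and Hspa1l, and 5 encode a terminal KDEL, in Calr, Hspa5, Pdia6, Hsp90b1 and Dnajc10. Pdia4 and Pdia2 end in the variant KEEL and Pdia3 in QEDL. The other members carry none of these ends, the mitochondrial class included. The HPD codons, the J-domain residues that trigger HSP70, were found in 44 of 45 J-domain members, the exception being Dnajb13. Constitutive Hspa8 and inducible Hspa1b share 75.3% of aligned coding bases, and cytosolic Hspa8 and ER Hspa5 share 68.8%.

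A gene was counted as detected at a TPM, a level scaled for transcript length and library size, of 1 or more. Of the 81 members, 47 (58.0%) were detected in both pups, against 17.0% of all genes. Among protein-coding genes the share was 59.0% of members and 31.8% of all. A further 8 members (against 6.41% of all genes) reached that level in pup 1 alone, and 3 (against 4.56%) in pup 3 alone. The remaining 23 were below 1 TPM in both pups, 19 of them with 0 counts in both, and each is named in its class below. Together the members held 1.29% of gene TPM in pup 1 and 1.05% in pup 3, and Hspa8 alone made up 34.8% and 15.8% of that sum.

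**Figure D1:**
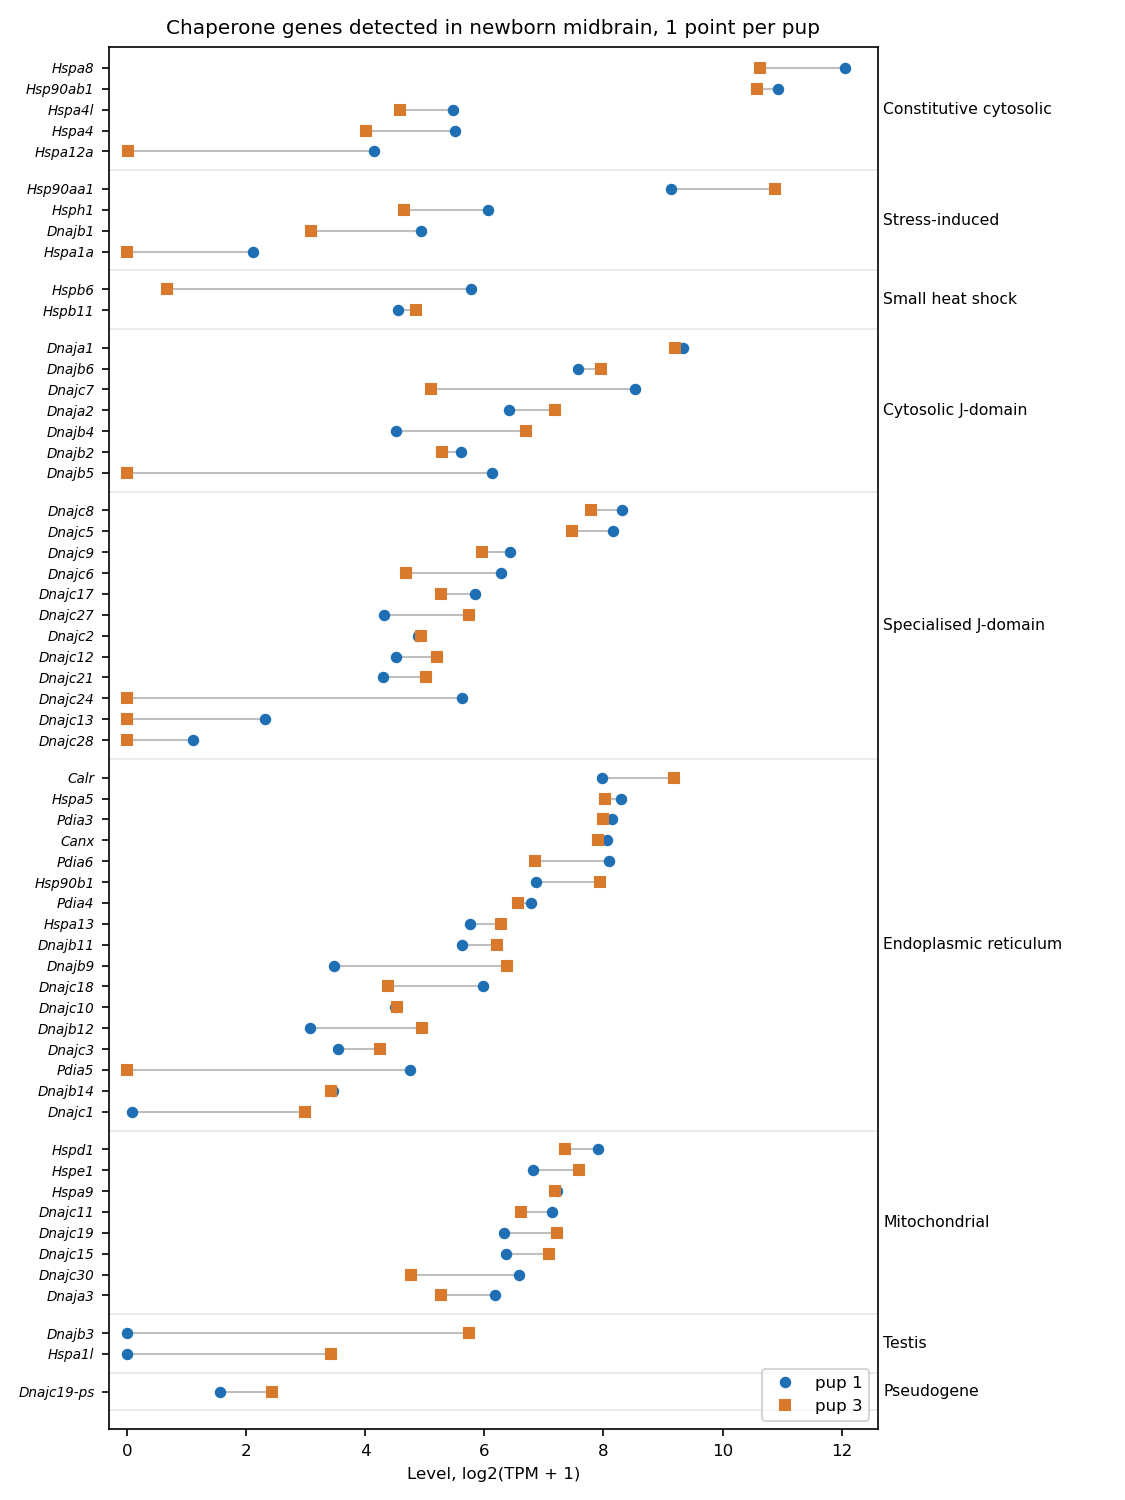
Level of each member with a TPM of 1 or more in at least 1 pup, as log2(TPM + 1), with a circle for pup 1 and a square for pup 3, grouped by class. Hspa8, Hsp90ab1 and Hsp90aa1 lie to the right, all 8 mitochondrial members have both points away from 0, and 10 members have 1 point at or close to 0.

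By summed level the constitutive cytosolic class stood first in both pups, with 6320 TPM in pup 1 and 3157 TPM in pup 3 (4739 ± 2237, n = 2). The ER class had 1856 and 2126 TPM (1991 ± 191), and the mitochondrial class 968 and 942 TPM (955 ± 18.5). The class sums thus differed in how closely the pups matched. The mitochondrial and ER sums lay close between the pups, as did the general cytosolic J-domain sums, 1424 and 1152 TPM. The constitutive cytosolic sum was higher in pup 1, and the stress-induced sum was higher in pup 3, 657 against 1925 TPM. The last of these rests on 1 gene, Hsp90aa1, and its size rests on the TPM scale. As shares of counts the direction was the same but the gap smaller: the stress-induced class held 0.119% in pup 1 and 0.177% in pup 3. Much of the constitutive difference was that of Hspa8, at 4268 and 1587 TPM. A close sum did not mean close members. In the mitochondrial class Hspe1 had 112 and 191 TPM and Dnajc30 94.5 and 26.4 TPM. In the ER class Calr had 249 and 579.7 TPM and Pdia6 272 and 114 TPM.

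**Figure D2:**
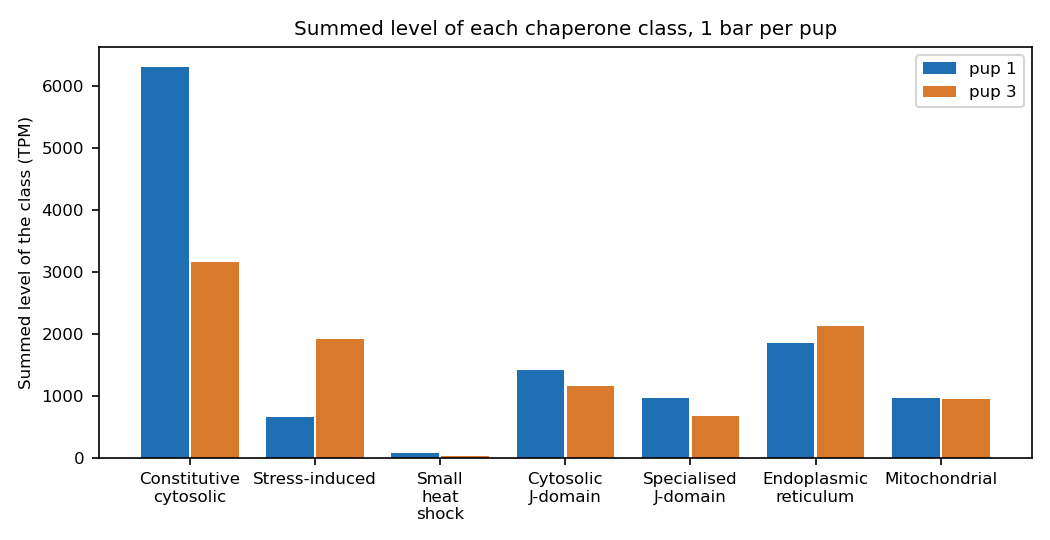
Summed TPM of each class, 1 bar per pup, with the axis from 0. The constitutive cytosolic bar is higher in pup 1 (6320 against 3157 TPM), the stress-induced bar is higher in pup 3 (1925 against 657 TPM, but 0.177% against 0.119% of counts), and the ER and mitochondrial bars lie close together.

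Constitutive cytosolic chaperones were led by Hspa8 (HSC70, the housekeeping HSP70 that also uncoats clathrin vesicles; chr9:40800984-40810087, plus strand). Hspa8 had 4268 TPM in pup 1 and 1587 TPM in pup 3 (2927 ± 1896) and ranked 31 among all genes by mean TPM. Its 114636 and 59007 counts gave a 2.42-fold higher share in pup 1. Hsp90ab1 (constitutive HSP90 beta; chr17:45567775-45573271, minus strand) had 1947 and 1532 TPM (1740 ± 294) and ranked 53. Both genes were therefore among the abundant messages of each pup, and both were higher in pup 1. The nucleotide exchange factors of the HSP110 type were far lower. Hspa4 had 44.4 and 15.1 TPM, and Hspa4l 43.2 and 23.0 TPM. For Hspa4 the protein-coding ENSMUST00000020630.7 held 21.9% of the TPM in pup 1 and 0.39% in pup 3. ENSMUST00000151854.1, annotated as a processed transcript and not as protein-coding, held 39.5% and 99.6%. The gene values of Hspa4 are therefore not those of its coding message alone. Hspa12a, a distant HSP70 relative of brain, had 16.8 TPM in pup 1 and 0.01 TPM in pup 3, from 1540 counts and 1 count. Hspa12b, its endothelial relative, was at 0.61 TPM and 0. Hspa2, which serves in male germ cells, had 0 counts in both pups.

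Among the stress-induced members, the HSP90 gene was abundant and the HSP70 genes were at or near 0. Hsp90aa1 (inducible HSP90 alpha; chr12:110690605-110702728, minus strand) had 558 TPM in pup 1 and 1893 TPM in pup 3 (1225 ± 944). Despite its name it is also expressed in unstressed neurons. Hspa1b (chr17:34956436-34959238, minus strand), an inducible HSP70, had 0 counts in both pups. Its near copy Hspa1a (chr17:34969190-34972156, minus strand) had 156 counts (3.33 TPM) in pup 1 and 0 in pup 3. The pair shares 99.6% of coding bases with an identical run of 638 bases, so a division of reads between them is uncertain. The sum of the pair was 3.33 TPM in pup 1 and 0 in pup 3. Hspa1l, with 0 and 529 counts, shares an identical run of 233 bases with Hspa1a, and division of reads with it was not tested. The remaining members leaned to pup 1. Hsph1 (HSP105, an exchange factor) had 65.8 and 24.2 TPM. Dnajb1 (HSP40, the inducible J-domain partner) had 29.6 and 7.49 TPM. Hspb1 (HSP27), a small heat shock protein of stressed cells, had 0 counts in both. The higher class sum of pup 3 was thus that of Hsp90aa1, which made up 98.4% of it, while Hsph1, Dnajb1 and Hspa1a were all lower in pup 3.

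Of the 6 small heat shock members, which hold unfolded protein without ATP, 4 were at 0. Hspb6 (HSP20, a muscle and heart member) had 53.9 TPM in pup 1 and 0.59 TPM in pup 3, from 1242 and 16 counts. Hspb11, which is named with the family but belongs to the intraflagellar transport complex of cilia, had 22.5 and 27.8 TPM. Hspb2, Hspb3, Hspb7 and Hspb8 had 0 counts in both pups. A count of 0 allows up to 3 counts, which is 0.115 CPM (counts scaled to library size) in pup 1 and 0.0926 CPM in pup 3. This floor covers the counting of reads only. RNA of the 13 pg input that never became reads was not measured, so a 0 is no upper limit on the tissue.

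The general cytosolic J-domain proteins were detected in both pups in 6 of 8 cases. Dnaja1, a farnesylated partner of HSC70, had 643 and 585 TPM (614 ± 41.1) and provided 45.2% and 50.8% of the class. Dnajb6, a suppressor of polyglutamine aggregation, had 189 and 248 TPM. Dnaja2 had 84.6 and 145 TPM, and Dnajb2, a neuronal J-domain protein with ubiquitin-binding motifs, 47.7 and 38.1 TPM. These 4 genes stayed within a factor of 4 between the pups, and 3 others did not. Dnajc7, which binds both HSP70 and HSP90 through TPR repeats, had 368 TPM in pup 1 and 33.4 TPM in pup 3. Dnajb4 ran the other way, with 22.0 and 102 TPM. Dnajb5 had 68.6 TPM in pup 1 and 0 in pup 3. Dnaja4 had 0 counts in both pups.

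Among the J-domain proteins with dedicated tasks, 9 of 15 were detected in both pups and 3 in pup 1 only. Dnajc8, a splicing-associated protein, had 318 and 222 TPM. Dnajc5 (cysteine string protein, which guards SNARE proteins on synaptic vesicles) had 286 and 176 TPM. Both were well above Dnajc6 (auxilin, the neuronal partner of HSC70 in clathrin uncoating), at 77.1 and 24.7 TPM. Dnajc9, a histone co-chaperone, had 85.0 and 61.0 TPM. Dnajc17 had 56.2 and 37.6 TPM, Dnajc27 had 18.9 and 52.5 TPM, Dnajc12 had 22.0 and 35.8 TPM, and Dnajc2 (a ribosome-associated J-domain protein) had 28.4 and 29.4 TPM. Of these members only Dnajc6 and Dnajc27 differed by more than 2-fold in TPM. Dnajc21 had 18.8 and 31.3 TPM. Dnajc24 (in diphthamide synthesis), Dnajc13 (in endosomal sorting) and Dnajc28 were read in pup 1 only, at 48.3, 4.01 and 1.16 TPM. Dnajc4, Dnajc22 and Dnajc25 had 0 counts in both pups.

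The ER class was the largest, with 15 of 20 members detected in both pups, and its leaders were of similar level. Calr (calreticulin, the soluble lectin chaperone of glycoproteins; chr8:84841850-84846934, minus strand) had 249 and 579.7 TPM (415 ± 234). Canx (calnexin, its membrane-bound relative; chr11:50293961-50325673, minus strand) had 267 and 240.4 TPM. Hspa5 (BiP, the ER HSP70; chr2:34771970-34777547, plus strand) had 311 and 260.0 TPM (286 ± 36.1). Hsp90b1 (GRP94, the ER HSP90; chr10:86690209-86705509, minus strand) had 116 and 245 TPM. Calr and Hsp90b1 were higher in pup 3, by 2.25-fold and 2.39-fold in counts, whereas Hspa5 and Canx lay close between the pups. The disulfide isomerases, which form and shuffle disulfide bonds, followed. Pdia3 (ERp57, the partner of both lectins) had 283 and 254 TPM, Pdia6 had 272 and 114 TPM, and Pdia4 had 109 and 94.1 TPM. Pdia5 was read in pup 1 only, at 26.0 TPM, and the pancreatic isomerase Pdia2 had 0 counts in both.

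The other HSP70-like member and the J-domain members of the ER class were lower than BiP. Hspa13, an HSP70-like protein of the microsomes, had 53.0 and 76.6 TPM. Dnajb11 (ERdj3) had 48.1 and 73.1 TPM, Dnajc10 (ERdj5) 21.5 and 22.2 TPM, and Dnajc3 (P58IPK) 10.7 and 18.1 TPM. Dnajb9 (ERdj4, a target of the Ire1 branch of the unfolded protein response) had 10.1 TPM in pup 1 and 82.1 TPM in pup 3. Of the J-domain proteins in the ER membrane, Dnajb12 had 7.45 and 29.9 TPM, Dnajb14 9.96 and 9.70 TPM, and Dnajc18 61.9 and 19.8 TPM. Dnajc1 had 0.06 TPM in pup 1 and 6.96 TPM in pup 3. Dnajc14 and Dnajc16 were below 1 TPM in both pups, with 0 and 0.39 TPM for Dnajc14 and 0.01 TPM and 0 for Dnajc16. The ER genes that were higher in pup 3 were therefore a mix of chaperones and J-domain proteins. The TPM of each detected Pdia gene was lower there, but so was that of Hspa5, Canx, Dnajb14 and Dnajc18. A lower value in pup 3 was thus not particular to the isomerases.

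Promoter sequence was examined as a property that the levels do not use. RefSeq promoters (GRCm38.p6, 250 bases before to 50 after each start) were found for 64 of the 81 members and were searched on both strands for the ER stress element, spelled CCAAT, any 9 bases, then CCACG. It occurred in 0.119% of the 32851 promoters, belonging to 37 genes in all, and 6 of these were members: Calr, Canx, Dnajc3, Hsp90b1, Hspa5 and Pdia6. All 6 are among the 18 ER members with a promoter. The windows are printed on the gene's strand with the element in capitals, reversed in Calr and in the second window of Hsp90b1.
Hspa5 (chr2:34772020-34772048, plus strand): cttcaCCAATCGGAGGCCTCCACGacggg
Calr (chr8:84847055-84847113, minus strand): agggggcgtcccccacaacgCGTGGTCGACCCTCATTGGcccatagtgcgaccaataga
Canx (chr11:50325780-50325838, minus strand): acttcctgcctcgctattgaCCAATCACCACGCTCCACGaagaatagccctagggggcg
Dnajc3 (chr14:118937807-118937865, plus strand): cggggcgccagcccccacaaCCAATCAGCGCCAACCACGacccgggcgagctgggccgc
Hsp90b1 (chr10:86705618-86705676, minus strand): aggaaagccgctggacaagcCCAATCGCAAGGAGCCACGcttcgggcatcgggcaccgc
Hsp90b1 second match (chr10:86705513-86705571, minus strand): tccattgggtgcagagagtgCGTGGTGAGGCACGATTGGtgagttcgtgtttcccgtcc
Pdia6 (chr12:17266471-17266529, plus strand): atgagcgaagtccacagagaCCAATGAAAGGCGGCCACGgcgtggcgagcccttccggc
All 6 genes were detected in both pups, as were 31.8% of protein-coding genes. None was over 4-fold different between the libraries, where the whole exact 95% interval of the count ratio had to lie beyond 4-fold. That is near the background: 5 of them had a mean of 100 TPM or more, a level at which 4.02% of all genes were called. They did not lean one way: counts of Calr and Hsp90b1 were higher in pup 3 and those of Pdia6 higher in pup 1. The shorter form that ends in CCA, which contains every match of the longer one, occurred in 1.09% of promoters and added Pdia3 and Pdia4. A match is a description of letters and was not tested as a binding site.

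All 8 mitochondrial members were detected in both pups, and none was over 4-fold different by the same rule. At their levels 4.02% of all genes (100 TPM or more) and 29.2% (20 to 100 TPM) were called, so this count is near the background. Hspa9 (mortalin, the mitochondrial HSP70 and import motor) had 148 and 144 TPM (146 ± 2.88). Hspd1 (HSP60, the folding chamber; chr1:55077835-55088243, minus strand) had 240.2 and 162 TPM. Hspe1 (HSP10, its lid; chr1:55088132-55091307, plus strand) had 112 and 191 TPM. The chamber was higher in pup 1 and its lid in pup 3, so the pair did not move together. Dnajc19 and Dnajc15, which belong to the inner membrane import machinery, had 79.9 and 147 TPM, and 81.4 and 135 TPM. Dnajc11, of the cristae-organising complex, had 139.7 and 97.5 TPM. Dnaja3 (TID1, the matrix J-domain partner) had 71.8 and 37.6 TPM, and Dnajc30 had 94.5 and 26.4 TPM. Import-associated Dnajc15 and Dnajc19 were thus higher in pup 3 and matrix Dnaja3 in pup 1, all within 4-fold.

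Hspd1 and Hspe1 run in opposite directions from annotated starts 111 bases apart, with their first bases overlapping in GENCODE M21, and the RefSeq promoters of both hold a heat shock element. The letters searched, on both strands, were GAA, any 2 bases, TTC, any 2 bases and GAA. They were found in 0.662% of genes with a promoter and in 4 of the 64 members: Hspe1, Hspd1, Dnajb6 and Hsph1. Of the 5 stress-induced members with a promoter, Hsph1 alone matched, and Dnajb1, Hspa1a, Hspa1b and Hspb1 did not match this spelling. The Hspd1 and Hspe1 windows overlap and are read from opposite strands, and in each window a match is in capitals. The capitals of these windows mark different, overlapping matches. Each of the promoters holds both matches, and the one on the gene's own strand is printed. In Hsph1 the element is reversed and lies after the RefSeq start, whereas in the other windows it lies before it.
Hspe1 (chr1:55088056-55088084, plus strand): ccgttctaGAACCTTCCGGAAggccccgc
Hspd1 (chr1:55088051-55088079, minus strand): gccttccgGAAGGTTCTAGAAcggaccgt
Dnajb6 (chr5:29735844-29735872, plus strand): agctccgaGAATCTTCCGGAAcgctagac
Hsph1 (chr5:149636280-149636308, minus strand): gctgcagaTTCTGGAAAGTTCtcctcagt
Counts of Hspe1 were higher in pup 3 and those of Hspd1 and Hsph1 higher in pup 1. Hspa8, Hsp90aa1 and Hsp90ab1 were among the members without a promoter entry.

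Members described mainly from testis were at 0 in pup 1. Dnajb3 (chr1:88204732-88205782, minus strand) had 1143 counts (52.7 TPM) in pup 3 and lies within the Ugt1a gene cluster, on the opposite strand. Hspa1l (chr17:34972703-34979285, plus strand), a germ-cell HSP70, had 529 counts (9.79 TPM) in pup 3. It starts 547 bases from Hspa1a and overlaps the opposite-strand gene Gm10501. Use of strand in counting is not given in the sources used here, so reads from overlapping genes cannot be told apart. The same limit holds for members of other classes that overlap an opposite-strand gene, among them Hspb6, Dnajc7, Hspa12a and Hspa1a. Hspb9, Dnajb7, Dnajb8, Dnajb13, Dnajc5b and Dnajc5g had 0 counts in both pups. Of the 3 pseudogenes, Dnajc19-ps had 1.95 and 4.39 TPM, Hspa9-ps1 had 0.13 and 0.02 TPM, and Dnaja1-ps had 0 counts.

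The next comparison was between the libraries, gene by gene. It compares the reads of 2 libraries, not conditions: a gene was called where the whole exact 95% interval of its count ratio lay beyond 4-fold. Such intervals cover counting error only, because amplified reads without molecular identifiers are not independent molecules. Of the 62 members with a count, 17 (27.4%) were over 4-fold different, against 41.0% of the 14605 genes with a count. Of these, 11 (17.7%) were higher in pup 1, where 23.1% of all genes were, and 6 (9.68%) were higher in pup 3, where 17.9% of all genes were. The shares were closer once level was matched. At a mean of 100 TPM or more, 1 of 22 members was called (4.55%, against 4.02% of all genes), at 20 to 100 TPM 7 of 24 (29.2%, against 29.2%), and below that 9 of 16 (56.2%, against 54.1%). At each level the share of members called was thus near the background, which is no result about the members.

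The called genes fell into every class except the mitochondrial one and the pseudogenes. Among genes read in both pups, Hspb6 was 96.6-fold higher in pup 1 (95% interval 59.3 to 169.6). Dnajc6 was 8.88-fold higher in pup 1 by counts (8.27 to 9.55), but 3.12-fold by TPM, since its effective length was 4951 bases in pup 1 and 1548 in pup 3. On counts per effective length it was no longer called. Dnajc7 was 7.67-fold higher in pup 1 (7.25 to 8.11) and was the called member with a mean of at least 100 TPM. Dnajb9 was 9.14-fold higher in pup 3 (8.11 to 10.3), and Dnajb4 was 5.26-fold higher in pup 3 (4.89 to 5.67). Of these 5, all but Hspb6 are J-domain genes, the largest family among the members. Hspa12a was 1917-fold higher in pup 1 (344 to 75761) and Dnajc1 153-fold higher in pup 3 (27.2 to 6092), each on 1 count in the other pup. Just inside 4-fold were Dnajc27, 3.89-fold higher in pup 3 (3.64 to 4.15), and Dnajb1, 3.52-fold higher in pup 1 (3.12 to 3.98).

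For members at 0 counts in the other pup the fold is a lower bound against 3 counts in that library. Such a bound covers counting error only and describes the libraries, not the tissue. In pup 1, Dnajb5 was at least 631-fold higher, Pdia5 at least 301-fold, Dnajc24 at least 280.5-fold, Hspa1a at least 64.5-fold and Dnajc13 at least 34.0-fold. Hspa12b and Dnajc28 were at least 13.7-fold and 6.64-fold higher there. In pup 3, Dnajb3 was at least 306-fold higher, Hspa1l at least 142-fold and Dnajc14 at least 9.91-fold. The exact 95% intervals that made the calls reached lower than these floors, to 512-fold for Dnajb5, 10.5-fold for Hspa12b, 7.66-fold for Dnajc14 and 4.80-fold for Dnajc28. Over the 58 members detected in either pup, the median log2 difference in TPM + 1, pup 3 minus pup 1, was -0.18, and its median size 0.88, against -0.07 and 1.56 over 12144 genes. At matched level the median size was no smaller in members, 0.63 against 0.59 at 100 TPM or more and 1.16 against 1.11 at 20 to 100 TPM.

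**Figure D3:**
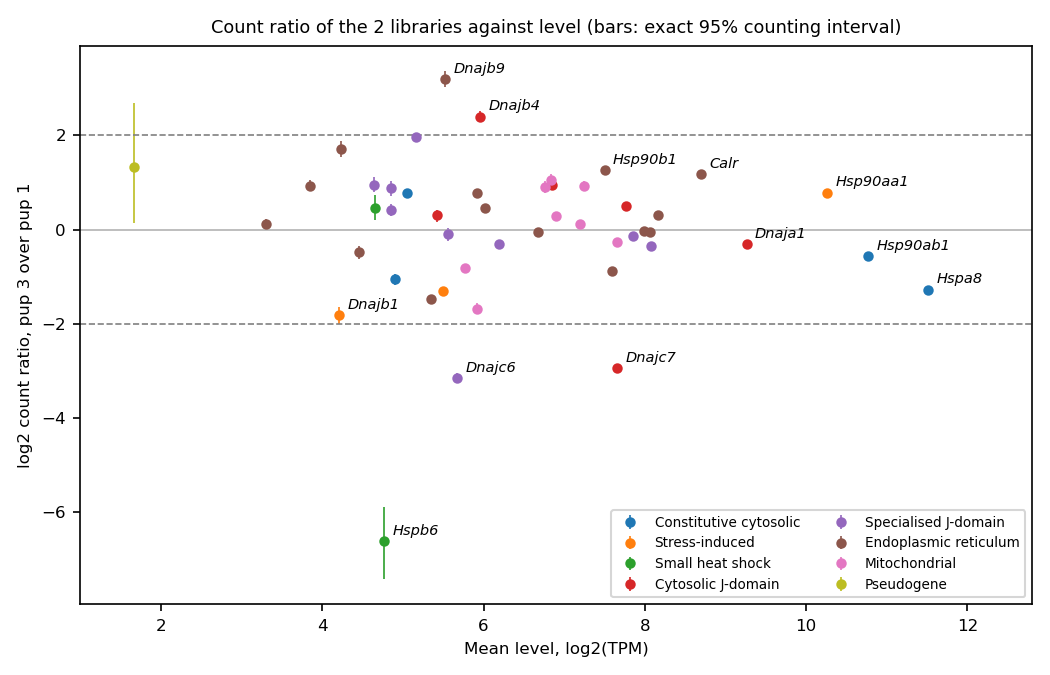
Log2 count ratio of pup 3 over pup 1 against mean level (log2 TPM) for members with at least 3 counts in both pups, coloured by class, with exact 95% counting intervals as bars and dashed lines at 4-fold. Members at higher level lie between the lines, with Dnajc7 below them, Dnajb9 and Dnajb4 above and Hspb6 lowest.

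Ratios of TPM within a library do not depend on how libraries are scaled, so fixed pairs of members were compared as log2 ratios of TPM + 1. Because of the added 1, this does not hold where a member is near 0. A direction was given where it was the same in both pups and the deposited 95% intervals of TPM did not overlap in either. Constitutive Hspa8 exceeded inducible Hspa1b by 12.06 in pup 1 and 10.63 in pup 3 (11.35 ± 1.01), a value that depends on the added 1 because Hspa1b was at 0. The spread of this ratio is therefore that of Hspa8 alone. Cytosolic Hspa8 exceeded ER Hspa5 by 3.77 and 2.60 (3.19 ± 0.83), and Hspa5 exceeded mitochondrial Hspa9 by 1.06 and 0.85 (0.95 ± 0.15). The HSP70 genes were thus ordered cytosol, ER, mitochondrion in each pup. The ER HSP90 gene Hsp90b1 was below cytosolic Hsp90ab1, with -4.06 and -2.64 (-3.35 ± 1.00). Dnaja1 exceeded Dnajb1 by 4.40 and 6.11 (5.25 ± 1.21), and Dnajc5 exceeded Dnajc6 by 1.88 and 2.78 (2.33 ± 0.64).

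The other 4 pairs had no direction. Hsp90ab1 exceeded Hsp90aa1 by 1.80 in pup 1 but was below it in pup 3, at -0.30. Canx over Calr was 0.10 and -1.27, and Hspd1 over Hspe1 was 1.09 and -0.23. Pdia3 over Pdia6 was 0.06 and 1.15, with overlapping intervals in pup 1. The HSP90, lectin and chaperonin pairs thus changed sign between these libraries, and no order is given for them. For the HSP90 pair the change rests on effective length, since pup 3 had 57983 counts of Hsp90ab1 and 55080 of Hsp90aa1.

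For Hsp90aa1 the TPM difference between the pups was larger than the count difference, and its effective length differed. Its counts were 25802 in pup 1 and 55080 in pup 3, a 1.72-fold higher share in pup 3 (1.69 to 1.74), but its TPM was 3.39-fold higher. The effective length by which the authors' values divide the counts was 2837 bases in pup 1 and 1277 in pup 3. The 2852-base transcript ENSMUST00000021698.8 held 71.0% of the gene's TPM in pup 1 and 8.16% in pup 3. The 711-base transcript ENSMUST00000155242.3 held 0% and 48.8%. The 3281-base transcript ENSMUST00000094361.6 had more counts than it in pup 3, 26394. Short transcript models thus carried much of the TPM of Hsp90aa1 in pup 3, and whether full-length messages differed was not tested.

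Transcript shares were compared over members that have 2 or more transcripts and reached 50 counts in both libraries. The leading transcript was the same in 24 of 37 members (64.9%, against 62.8% of all such genes), and in 16 of 19 at a mean of 100 TPM or more (84.2%, against 82.0%). The 3 that changed were Hsp90aa1, Calr and Dnaja1. In Calr a 943-base model annotated as a retained intron held 37.8% in pup 1 and led in pup 3 with 48.2%. With the leader taken by counts, which favour long transcripts, 29 of 37 members kept it (78.4%), Calr and Dnaja1 among them. Hspa8 kept ENSMUST00000117557.3 in front, at 43.9% and 51.4%. Hsp90ab1 kept ENSMUST00000024739.9, at 85.6% and 58.3%, while a 703-base model annotated to nonsense-mediated decay held 13.3% and 39.7%. Hspa5 kept ENSMUST00000100171.2, at 65.4% and 93.0%. In Canx the 3779-base transcript led with 51.9% and 76.3%. Among lower genes, Dnajc6 changed from the 5128-base ENSMUST00000106929.5, at 77.8% and 0%, to a 444-base model, at 1.80% and 74.3%. By counts a long transcript led in pup 3 as well, with 728 counts on the 5127-base ENSMUST00000106930.3 and 144 on the 444-base model. The effective length differed by more than 1.5-fold in 5 of 47 members (Dnajc10, Dnajc11, Dnajc6, Hsp90aa1 and Hspa4l), 10.6%, against 15.4% of all genes detected in both pups.

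**Figure D4:**
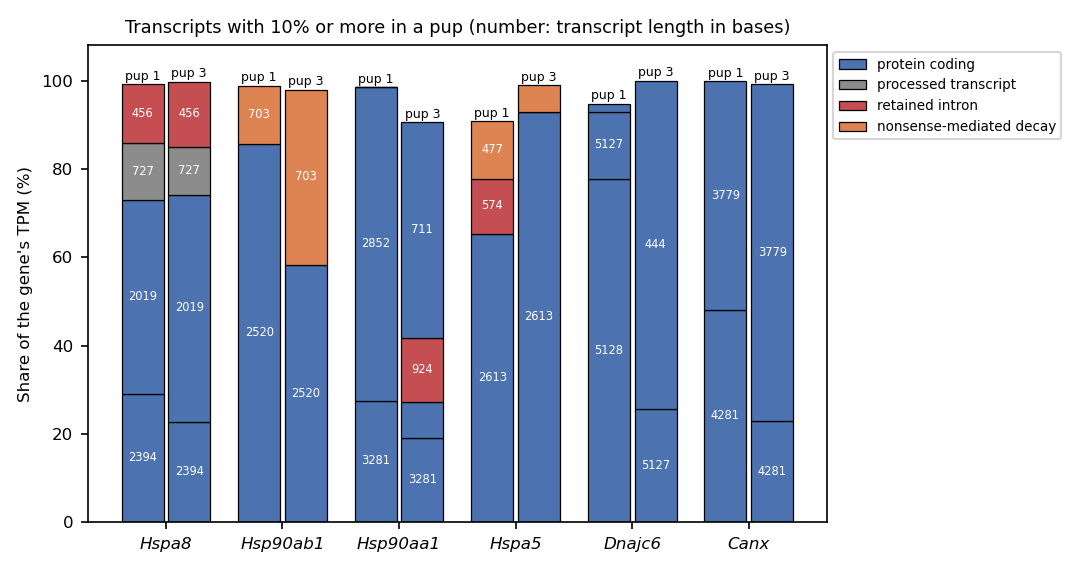
Share of each gene's TPM held by transcripts with 10% or more in a pup, stacked, 1 bar per pup, with length in bases printed in wide segments and colour giving the GENCODE M21 type. Hsp90aa1 and Dnajc6 pass from long transcripts in pup 1 to a 711-base and a 444-base model in pup 3 by share of TPM, whereas Hspa8 keeps similar shares.

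Partners of the members that the symbols do not catch were read from lists of 66 genes. Of these, 47 were detected in each pup, as were 17.0% of all genes and 31.8% of protein-coding genes. A further 10 (against 6.41% of all genes) were detected in pup 1 alone, 2 (against 4.56%) in pup 3 alone and 7 in none. By the 4-fold rule, 14 were higher in pup 1 and 4 in pup 3, where 23.1% and 17.9% of all genes with a count were. The heat shock factors were low. Hsf1, which drives the cytosolic stress genes, had 32.0 and 10.9 TPM and Hsf2 33.4 and 4.31 TPM, while Hsf4 and Hsf5 had 0. Of the crystallins, small heat shock proteins without an Hspb symbol, Cryab had 18.0 TPM and 0, and Cryaa had 0 in both.

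Of the HSP90 partners, Ptges3 (p23) had 227 and 293 TPM, Ahsa1 (the ATPase activator) 142 and 245 TPM, and the immunophilins Fkbp4 and Ppid 92.5 and 239.9 TPM, and 178 and 89.6 TPM. Stip1 (HOP, which bridges HSP70 to HSP90) had 178 and 29.9 TPM. Of the HSP70 partners, Stub1 (CHIP, the ubiquitin ligase that binds EEVD) had 263 and 339 TPM, Sgta 243 and 129 TPM, Hspbp1 (an exchange factor) 123 and 211 TPM and St13 (HIP) 110.5 and 127 TPM. The EEVD-binding genes Stip1 and Stub1 were thus read in both libraries.

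In the ER, Ppib, a prolyl isomerase, had 417 and 557 TPM, Erp29 169.8 and 376 TPM, P4hb (the founding disulfide isomerase) 229.7 and 132 TPM and the translocon subunit Sec61b 125 and 235 TPM, while Sdf2l1 had 0. Of the unfolded protein response genes, Herpud1 had 109.8 and 166 TPM, Sel1l 104 and 143 TPM, Atf4 104 and 113 TPM and Ddit3 (CHOP) 45.9 and 21.1 TPM, whereas Eif2ak3 and Trib3 had 0. Of the Ire1 branch named for Dnajb9, Ern1 (Ire1) had 23.8 TPM in pup 1 and 0 in pup 3, and Xbp1 was detected in pup 1 and had 0.50 TPM in pup 3. The response genes thus had no common direction. Of the mitochondrial partners, Clpp (a matrix protease subunit) had 74.0 and 268 TPM, Timm44 (of the import motor) 140.1 and 38.0 TPM, Tomm20 (an import receptor) 77.6 and 67.4 TPM and Clpb (a disaggregase) 142 TPM and 0, while Hscb had 0.

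Library facts touch all of these values. The libraries held 26583225 and 33142647 expected counts, with 10166 and 9367 genes detected, 2.05% and 2.21% of counts from spike-ins and 2.79% and 2.66% from mitochondrial genes. All 6 neuron markers and all 4 haemoglobin genes were detected in both pups. Of 8 midbrain markers, 3 were detected in both pups. By the 4-fold rule, 2 were higher in pup 1 and 4 in pup 3, where 23.1% and 17.9% of all genes with a count were. Th, the dopamine-synthesis enzyme, had 46.9 and 38.5 TPM. Otx2 had 40.6 and 0.40 TPM and Pitx3 8.14 TPM and 0, whereas Nr4a2 had 3.08 and 57.0 TPM, Ddc 6.88 and 38.6 TPM and Pax7 0.14 and 6.76 TPM. En2 had 0.71 and 2.49 TPM, and En1 was below 1 TPM in both. The marker calls thus went in both directions. The markers lay at levels where 29.2% (20 to 100 TPM) and 54.1% (under 20 TPM) of all genes were called. Whether the markers exceeded that background was not tested. None of 6 Hox genes of hindbrain and cord was detected. The part of these differences in the chaperone values was not tested.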

How the data were processed

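Gene and transcript tables of 2 RNA-seq libraries were used as the authors deposited them. The authors gave expected counts, TPM and FPKM per gene, and the percent of a gene's TPM on each transcript, per the file headers. The genome build was mm10 with GENCODE M4, per the readme files; the aligner, the quantifier, the versions and the use of strand were not given in the sources used here. No read was reprocessed. TPM and FPKM divide by effective length, so short transcript models raise them. Scaling of count ratios used the gene totals; TMM factors (edgeR 4.0.16) and size factors (DESeq2 1.42.0, R 4.3.3) entered as alternatives only. Ratios carry exact (Clopper-Pearson) 95% intervals. Levels and motif searches were computed with Python 3.11.15, pandas 2.3.3, numpy 2.4.6 and scipy 1.17.1, and figures with matplotlib 3.10.9. Shares of identical coding bases came from global pairwise alignment with biopython 1.88. The ratio rule was run on simulated counts that held counting error only. The simulation had no amplification noise, so it does not measure false calls in these libraries. The depth was 26037002 and 32408655 counts on genes. Members named were all 81; of the partner lists, up to 4 by mean TPM and those at 0, with Stip1, Xbp1 and Ern1 added after their values were seen. Members and lists were chosen with earlier results of these data known. Both pups carry the same donor record in the labels, so the spread may be partly technical.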

Additional observations from a re-analysis of the deposited data

How the results depend on the processing

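Of 85 alternative values that keep both pups, 74 moved by less than the spread between pups or by less than 1.5-fold of a count, and 11 moved more; 0 values with a direction changed sign. Restricting the comparison to a mean of 10 TPM or more left 6 members over 4-fold higher in pup 1 (from 11) and 3 higher in pup 3 (from 6), since fewer genes were tested. A 2-fold limit gave 10 higher in pup 3. On the FPKM scale the summed levels were 832 for cytosolic J-domain, 525 for specialised J-domain, 1299 for ER and 620.3 for mitochondrial members. FPKM is a change of unit that lowered every class sum. The constitutive cytosolic sum was 3022 instead of 4739, within its SD of 2237. The classes that moved are thus those with a small SD between the pups. The mitochondrial sum was 932 as posterior mean TPM and 1001 as TPM over mouse genes only, against an SD of 18.5. The Hspa8 over Hspa1b ratio was 14.67 with a pseudocount of 0.1 and 8.03 with 10. Beyond these constructions, no cause was tested. On counts per effective length, an alternative chosen after seeing the data, 10 members were higher in pup 1 and 6 in pup 3, and Dnajc6 was the one no longer called. With 1 pup left out, members detected were 50 to 55, and class sums and pair ratios took the single pups' values. With 2 pups this says nothing of stability, and 3 pairs without a direction changed sign: Hsp90ab1 over Hsp90aa1 (-0.30 to 1.80), Canx over Calr (-1.27 to 0.10) and Hspd1 over Hspe1 (-0.23 to 1.09). No paired analysis was possible because there is 1 group.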

Other observations

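The summed J-domain level was set against the HSP70 of its compartment, a comparison chosen after the values were seen. In the cytosol, 9 J-domain genes (the 8 general ones and Dnajb1) had 0.34 and 0.73 TPM per TPM of Hspa8 (0.54 ± 0.28, n = 2). In the ER lumen, 5 J-domain genes had 0.29 and 0.78 per TPM of Hspa5 (0.53 ± 0.34). In the mitochondrion, 4 J-domain genes had 2.21 and 2.40 per TPM of Hspa9 (2.30 ± 0.14). The mitochondrial value was above the others in both pups, and the cytosolic and ER values did not differ beyond their spread.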
